A study of Mus musculus with 8 samples.

Results

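Chil3 encodes CHIL3, also called ECF-L, the protein that was added to the NSCs in these cultures, and Chil1, Lgals3, Gsn and Serpinf1 encode 4 other secreted proteins considered with it. The 5 genes were taken by name and not by a threshold on a measured value, but with earlier results of these data known. Chil1 encodes the chitinase-like relative whose human counterpart is CHI3L1. Lgals3 encodes galectin-3, which has been described as a binding partner of CHI3L1. Gsn encodes gelsolin and Serpinf1 encodes PEDF, both of which were considered as soluble factors released by endothelial colony-forming cells. They are 5 of 18194 genes that have a probe set of their own on the array, which holds 11 probe sets annotated to 1 of these symbols alone, of 45101 in all, with 1 each for Chil1, Chil3 and Lgals3, 6 for Gsn and 2 for Serpinf1.

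NSCs growing as secondary neurospheres were kept for 7 or 3 days in rcCHIL3 or in MHM + GF, with 2 arrays from independent experiments for each of the 4 groups. rcCHIL3 was MHM, the defined medium of these NSC cultures, conditioned by HEK293T cells, a human kidney cell line, after transfection with Chil3, and the methods name growth factors (EGF and FGF-2) only for the MHM + GF medium. The added protein, the conditioning by HEK293T cells and the growth factors therefore differ together between the media and cannot be told apart. The series text gives adult mouse brain as the source of the NSCs, and the methods list adult mice and embryos of several strains without saying which strain, sex or age these arrays came from. RNA from whole cultures was measured, so that fewer cells of a type and less RNA per cell cannot be told apart.

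Chitinase-like proteins share the fold of chitinases and bind sugars, but most have lost the enzyme activity. They are secreted by macrophages, astrocytes and epithelia, and act on neighboring cells through receptors such as IL13RA2 with TMEM219, CD44 and galectin-3. Galectins are sugar-binding lectins found in the cytoplasm, the nucleus and outside the cell, gelsolin cuts and caps actin filaments and has a secreted plasma form, and PEDF is a serpin without protease inhibition that is known as a neurotrophic niche factor for adult NSCs.

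Chil1 lies on chromosome 1 (chr1:134182156-134190031), Gsn on chromosome 2 (chr2:35256359-35307902), Chil3 on chromosome 3 (chr3:106147554-106167564), Serpinf1 on chromosome 11 (chr11:75410029-75422623) and Lgals3 on chromosome 14 (chr14:47373860-47386167), all in GRCm38.p6. All 5 genes had promoter entries in RefSeq (GRCm38.p6), with 1 start for each gene except Gsn, which had 3. The 250 bases before the start are shown for the genes with 1 start, since Chil1, Lgals3 and Serpinf1 were higher in rcCHIL3 at 3 days whereas Chil3 stayed near 0. The Chil1 window is chr1:134181906-134182155 (plus strand), that of Lgals3 chr14:47373610-47373859 (plus strand), that of Serpinf1 chr11:75422624-75422873 (minus strand) and that of Chil3 chr3:106167565-106167814 (minus strand). Capitals mark matches, on either strand, to a CCAAT box (CCAAT), a GC box (GGGCGG), an interferon and cytokine (STAT) site (TTCNNNGAA) or a hypoxia (HIF) core (ACGTG or GCGTG).
Chil1: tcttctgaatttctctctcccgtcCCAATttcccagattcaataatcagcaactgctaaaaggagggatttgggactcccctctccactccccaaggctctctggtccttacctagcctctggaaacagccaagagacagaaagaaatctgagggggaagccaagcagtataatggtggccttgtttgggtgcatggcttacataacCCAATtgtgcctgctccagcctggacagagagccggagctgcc
Lgals3: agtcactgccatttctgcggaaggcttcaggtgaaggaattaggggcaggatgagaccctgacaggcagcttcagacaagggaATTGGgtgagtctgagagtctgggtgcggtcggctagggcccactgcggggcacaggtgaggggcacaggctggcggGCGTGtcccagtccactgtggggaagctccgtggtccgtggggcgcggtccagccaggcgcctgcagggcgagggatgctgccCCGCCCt
Serpinf1: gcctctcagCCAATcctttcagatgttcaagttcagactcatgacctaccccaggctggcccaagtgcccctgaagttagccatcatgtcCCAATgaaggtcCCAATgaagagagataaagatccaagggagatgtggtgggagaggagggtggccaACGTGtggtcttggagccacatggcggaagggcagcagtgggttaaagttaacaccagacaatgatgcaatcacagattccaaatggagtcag
Chil3: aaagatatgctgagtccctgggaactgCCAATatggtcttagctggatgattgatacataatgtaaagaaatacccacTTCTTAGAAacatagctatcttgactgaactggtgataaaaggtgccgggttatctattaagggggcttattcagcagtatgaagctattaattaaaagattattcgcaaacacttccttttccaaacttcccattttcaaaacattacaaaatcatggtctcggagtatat

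CCAAT was the motif these 4 windows shared. It occurred at 2 places in Chil1 (226 and 43 bases before the start), at 1 in Lgals3 (167 bases, on the other strand), at 3 in Serpinf1 (241, 160 and 148 bases) and at 1 in Chil3 (223 bases), and 33.8% of the 32817 RefSeq windows of this length hold it. The Lgals3 window also held a GC box 7 bases before the start and a HIF core 90 bases before it, motifs present in 32.7% and 38.6% of all windows. Serpinf1 had a HIF core 93 bases before its start. The STAT site, found in 7.01% of all windows, was present in Chil3 alone among these 4 windows, 172 bases before the start. Neither TATAAA (12.4% of all windows) nor the AP-1 site TGANTCA (6.75%) occurred in any window of the 5 genes, and the motifs searched overlapped nowhere in the 4 windows shown. The 3 Gsn windows held GC boxes at 2, 1 and 1 places and CCAAT at 0, 1 and 3 places. GC content was 66.0% in the Lgals3 window, 60.8%, 56.0% and 57.6% in the Gsn windows, 51.6% in each of the Chil1 and Serpinf1 windows and 36.4% in the Chil3 window, against a median of 52.4% over all windows. These matches describe letters and were not tested as binding sites.

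The deposited signal intensities averaged 267.3 to 316.6 per array and were rescaled to an average of 100, the unit of every signal below. A signal of 50 on at least 2 arrays was required for a test, a level that 30.1 to 31.5% of the probe sets reached on each array, and 15679 probe sets were tested. Changes are differences of log2(signal + 20), a scale that understates the change of dim genes, and were called at an adjusted p under 0.05 (limma, Benjamini-Hochberg). Arrays of the same group correlated at 0.992 to 0.994. All 8 neural stem and progenitor markers with a probe set of their own were bright enough to be tested, and none of 16 microglia and macrophage or 9 endothelial markers was. Nes, the gene of the intermediate filament nestin, passed through the MHM + GF 3-day arrays alone, with a mean of 186.6 there, 13.8 in rcCHIL3 at 7 days, 29.9 in MHM + GF at 7 days and 25.2 in rcCHIL3 at 3 days. The other stem and progenitor markers did not all share this pattern. Of the 8, none was called higher and 3 lower in rcCHIL3 at 7 days (21.3% and 22.7% of all tested probe sets). At 3 days 3 were called higher and 3 lower (27.7% and 22.5%), with Nes among those lower at both days.

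Of the 11 probe sets, 6 passed this limit, namely those of Chil1 and Lgals3 and 4 of the 6 of Gsn. Both probe sets of Serpinf1, that of Chil3 and 2 of Gsn (1456568_at and 1456569_x_at) were too dim on every array. Chil1 passed through the 2 rcCHIL3 7-day arrays alone, so that it entered the test only because it was high there, which favored its direction at 7 days. Gsn 1456312_x_at passed through the 4 arrays of 7 days alone, which favored a rise with time. For these probe sets the values of a fit without the filter, over all 45037 probe sets other than array controls, are given as well. The deposited values hold no detection calls, and the MAS5 calls that the paper describes for its supplementary data were not used. Whether signals under 50 exceed background was therefore not assessed.

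Chil3, the gene of the added protein, was at the bottom of the scale in every culture. Its probe set gave signals of 0.4 and 0.4 in rcCHIL3 at 7 days, 0.4 and 1.5 in MHM + GF at 7 days, 1.3 and 0.7 in rcCHIL3 at 3 days, and 0.7 and 2.3 in MHM + GF at 3 days. The groups overlapped at both days, and no fold is given. A further probe set shared by Chil3 and its neighbor Chil4, left out of the counts, lay between 3.4 and 8.2 on the 8 arrays. The RNA came from the neurospheres and not from the HEK293T cells that made the protein, and neurosphere Chil3 mRNA was not detectable above these levels with either medium.

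Chil1, whose human counterpart CHI3L1 (YKL-40) is secreted by reactive astrocytes and macrophages, had higher signals in rcCHIL3 than in MHM + GF at both days. They were 57.7 and 56.2 in rcCHIL3 and 33.3 and 26.1 in MHM + GF at 7 days. At 3 days they were 47.8 and 38.1 in rcCHIL3 and 10.2 and 9.2 in MHM + GF. Every rcCHIL3 array lay above every MHM + GF array, also across the days, and 6 of the 8 were under 50. The difference between the media was 0.63 ± 0.11 (SE, adjusted p = 0.001) at 7 days and 1.08 ± 0.11 (adjusted p = 1.2e-05) at 3 days. Without the filter, through which Chil1 had passed by its rcCHIL3 7-day signals, the adjusted p was 0.0085 at 7 days and 0.00031 at 3 days. From the third to the seventh day it rose by 0.74 ± 0.11 in MHM + GF (adjusted p = 0.0002, and 0.0023 without the filter), and its difference in rcCHIL3 was 0.29 with a 95% interval of 0.04 to 0.54 (adjusted p = 0.065). The rcCHIL3 difference was smaller at 7 days than at 3 days, with a change of -0.45 ± 0.16 (adjusted p = 0.044). That call was lost when any 1 of 6 of the 8 arrays was left out (adjusted p 0.072 to 0.16), on the deposited scale (0.092), with an offset of 50 (0.12) and without a filter (0.13).

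On the scale of log2(signal + 20), which understates the change of dimmer genes, Lgals3 had the largest changes among the 5 genes in all comparisons except that of the media at 7 days. It gave 438.9 and 475.3 in rcCHIL3 and 301.9 and 397.3 in MHM + GF at 7 days. At 3 days it gave 113.9 and 110.2 in rcCHIL3 and 19.7 and 27.4 in MHM + GF. The 4 groups did not overlap, and the MHM + GF 3-day arrays alone were under 50. Galectin-3 mRNA rose with rcCHIL3 by 1.61 ± 0.12 at 3 days (adjusted p = 8.7e-07), and 135 of the 15679 tested probe sets (0.861%) had a larger rise. At 7 days it was 1.31 times as high in rcCHIL3 as in MHM + GF (0.38 ± 0.12, adjusted p = 0.027). That call was lost without replicate 1 of MHM + GF at 7 days (0.19, adjusted p = 0.23), without rcCHIL3 replicate 1 (adjusted p = 0.054) or replicate 2 (adjusted p = 0.14), with all probe sets kept (adjusted p = 0.086) and when a floor of 10 replaced the offset (adjusted p = 0.066).

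Lgals3 also rose with time in culture, in both media. Between 3 and 7 days it rose by 1.85 ± 0.12 in rcCHIL3 (4.08 times in mean signal, adjusted p = 1e-06) and by 3.08 ± 0.12 in MHM + GF (adjusted p = 4.6e-09). In these comparisons 37 probe sets (0.236%) and 14 probe sets (0.0893%) had larger rises. The rcCHIL3 difference was smaller at 7 days than at 3 days, with a change of -1.23 ± 0.17 (adjusted p = 0.00021). Galectin-3 is abundant in microglia and macrophages, and the 16 markers of these cells had a summed signal of 116.7 to 117.7 in rcCHIL3 and 81.1 to 122.5 in MHM + GF at 7 days, and of 80.8 to 99.8 in rcCHIL3 and 69.2 to 72.8 in MHM + GF at 3 days. C1qa and C1qc stayed at a mean of 0.6 or less in every group, and Cd68, a lysosomal protein, averaged 39.8 (rcCHIL3) and 11.2 (MHM + GF) at 7 days and 19.5 (rcCHIL3) and 10.5 (MHM + GF) at 3 days.

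**Figure D1:**
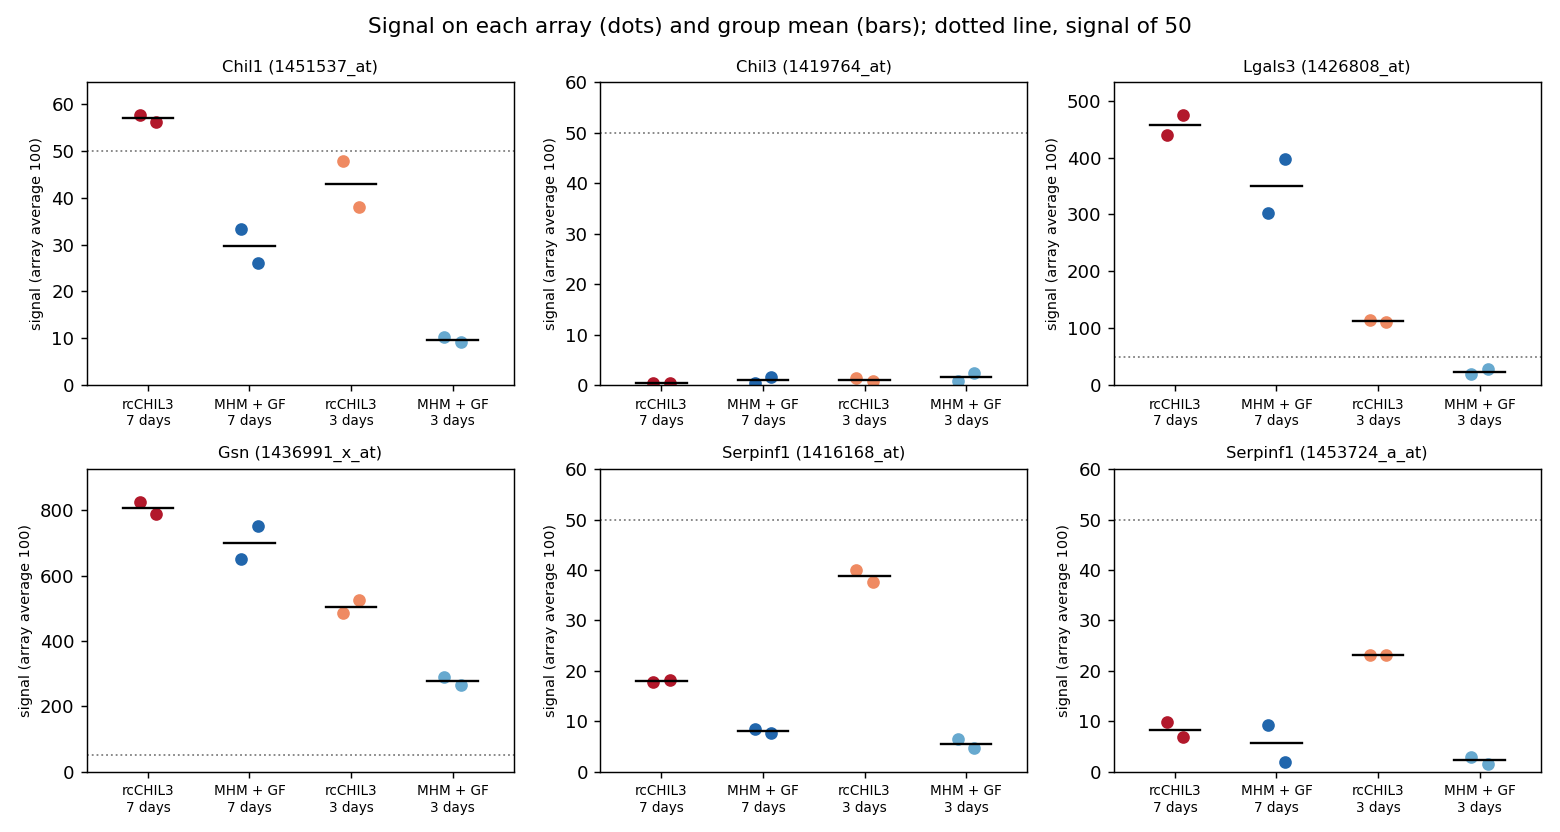
Signal on each array (y axis, linear, array average 100) of Chil1, Chil3, Lgals3, the brightest Gsn probe set and both Serpinf1 probe sets, by medium and day (x axis). Dots are the 2 arrays of a group, bars their mean and the dotted line a signal of 50. Lgals3 spans 19.7 to 475.3, Chil3 stays at or below 2.3, and the Serpinf1 probe sets are highest in rcCHIL3 at 3 days (39.9 and 37.7 at 1416168_at) but below 50.

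Gsn signals were higher in rcCHIL3 than in MHM + GF at all 4 tested probe sets at both days, without overlap. Gsn was called higher at 3 of them at 3 days and at 2 of them at 7 days. At 1415812_at it had signals of 811.2 and 839.8 in rcCHIL3 and 625.0 and 610.9 in MHM + GF at 7 days, and 489.9 and 476.0 in rcCHIL3 and 284.3 and 286.8 in MHM + GF at 3 days. The 4 groups did not overlap at this probe set. The rise with rcCHIL3 was 0.72 ± 0.06 at 3 days (1.69 times, adjusted p = 1.8e-06) and 0.41 ± 0.06 at 7 days (1.34 times, adjusted p = 0.00029).

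The probe sets 1436991_x_at and 1437171_x_at had the same order of groups. The x in their names marks sets whose probes can also match other transcripts. 1436991_x_at gave 826.6 and 788.0 in rcCHIL3 and 650.1 and 750.5 in MHM + GF at 7 days, and 485.6 and 525.0 in rcCHIL3 and 290.5 and 265.9 in MHM + GF at 3 days. It rose with rcCHIL3 by 0.82 ± 0.08 at 3 days (adjusted p = 7.3e-06), and its difference at 7 days was 0.20 with a 95% interval of 0.03 to 0.38 (adjusted p = 0.062, and 0.02 without replicate 2 of MHM + GF at 7 days). 1437171_x_at gave 544.3 and 521.7 in rcCHIL3 and 415.3 and 431.1 in MHM + GF at 7 days, and 287.0 and 329.6 in rcCHIL3 and 154.3 and 174.5 in MHM + GF at 3 days. It rose by 0.83 ± 0.08 at 3 days (adjusted p = 7.8e-06) and by 0.32 ± 0.08 at 7 days (adjusted p = 0.0092, and 0.058 without replicate 1 of rcCHIL3 at 7 days).

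The remaining tested probe set, 1456312_x_at, was dimmer and separated the days more than the media. Its signals were 81.8 and 91.8 in rcCHIL3 and 72.9 and 68.4 in MHM + GF at 7 days, and 42.6 and 46.3 in rcCHIL3 and 38.4 and 33.9 in MHM + GF at 3 days. Its rcCHIL3 difference was 0.24 (95% interval 0.02 to 0.45, adjusted p = 0.075) at 7 days and 0.20 (95% interval -0.02 to 0.42, adjusted p = 0.11) at 3 days. The 2 dim probe sets lay at 5.3 or less (1456568_at) and between 10.3 and 23.1 (1456569_x_at), and in the fit without the filter neither these nor Chil3 were called in any of the 5 comparisons (adjusted p 0.25 to 0.99). The calls between the media thus differed among the Gsn probe sets, and the difference between probe sets was not tested.

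All 4 tested Gsn probe sets rose between 3 and 7 days in both media. In rcCHIL3 the rises were 0.66 to 0.75 (adjusted p 3.9e-06 to 0.00018). In MHM + GF they were 1.06 at 1415812_at, 1.27 at both 1436991_x_at and 1437171_x_at, and 0.69 at 1456312_x_at (adjusted p 7.1e-08 to 0.00012). At 1456312_x_at, which reached 50 at 7 days only, the adjusted p without the filter was 0.0014 in rcCHIL3 and 0.00079 in MHM + GF. The rcCHIL3 difference was smaller at 7 than at 3 days at the first 3 of these, with changes of -0.31 ± 0.09, -0.61 ± 0.11 and -0.51 ± 0.12 (adjusted p 0.012, 0.0014 and 0.0048), and at 1456312_x_at it changed by 0.04 (95% interval -0.27 to 0.34), with no call. On the deposited scale the calls of 1415812_at (-0.16, adjusted p = 0.56) and 1437171_x_at (-0.38, adjusted p = 0.14) were lost.

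**Figure D2:**
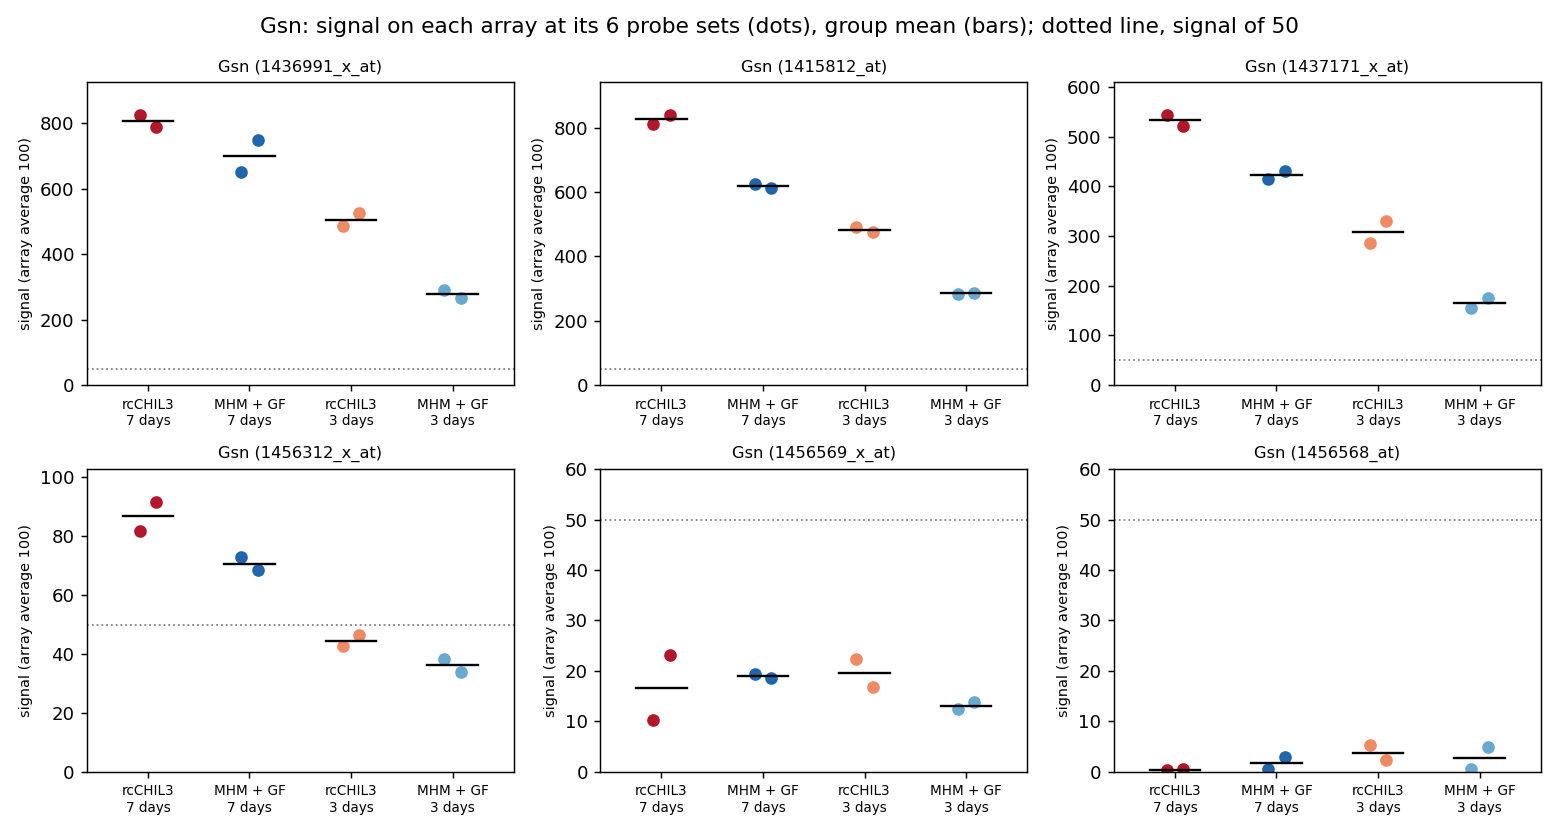
Signal on each array (y axis, linear, array average 100, each panel with its own range) at the 6 Gsn probe sets, by medium and day (x axis). Dots are arrays, bars group means and the dotted line a signal of 50. The 3 bright probe sets and 1456312_x_at are highest in rcCHIL3 at 7 days and lowest in MHM + GF at 3 days, and the 2 dim ones do not exceed 23.1.

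Gelsolin mRNA is known from oligodendrocytes as well as from astrocytes and choroid plexus, and markers of these cells were summed on each array. The 7 oligodendrocyte markers, of which 6 were tested and Mog averaged 9.9 or less, summed to 5239.2 to 5487.6 in rcCHIL3 and 3614.5 to 3740.4 in MHM + GF at 7 days, and 5074.4 to 5137.1 in rcCHIL3 and 1989.2 to 2026.1 in MHM + GF at 3 days. The 8 astrocyte markers, all tested, summed to 10352.1 to 10747.4 in rcCHIL3 and 10354.5 to 10413.4 in MHM + GF at 7 days, and 8364.5 to 8685.3 in rcCHIL3 and 6775.2 to 6811.1 in MHM + GF at 3 days. Of the 8, 3 were called higher and 2 lower in rcCHIL3 at 7 days (21.3% and 22.7% of all tested probe sets). At 3 days 4 were higher and 3 lower (27.7% and 22.5% of all). Gfap, an intermediate filament gene, averaged 1546.2 (rcCHIL3) and 1144.8 (MHM + GF) at 7 days and 910.0 (rcCHIL3) and 52.0 (MHM + GF) at 3 days. Aldh1l1, a folate enzyme gene, lay on the other side, with means of 439.9 (rcCHIL3) and 651.6 (MHM + GF) at 7 days and 409.2 (rcCHIL3) and 997.8 (MHM + GF) at 3 days, and Slc1a3, a glutamate transporter gene, was also called lower at both days. The 8 ependymal and choroid plexus markers, of which 6 were tested, summed to 1488.8 to 1679.4 in rcCHIL3 and 666.8 to 947.7 in MHM + GF at 7 days, and to 614.3 to 929.9 in rcCHIL3 and 176.5 to 307.5 in MHM + GF at 3 days. Of the 6, 4 were called higher and none lower at 7 days (21.3% and 22.7% of all). At 3 days 4 were higher and 1 (Rsph1) lower (27.7% and 22.5% of all). The choroid plexus genes Ttr (1.55 ± 0.58, adjusted p = 0.043) and Folr1 (0.86 ± 0.13, adjusted p = 0.00016) were among those called higher at 3 days. The Ttr call was lost after quantile normalization. At 7 days neither Ttr (0.18, adjusted p = 0.82) nor Folr1 (0.25, adjusted p = 0.12) was called. Kl and Clic6 were too dim. At 7 days Tppp3 averaged 543.7 (rcCHIL3) and 84.1 (MHM + GF). The part of these cell types in the Gsn, Chil1 and Lgals3 differences was not tested.

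Serpinf1 had a different pattern from the other genes, with its highest signals in rcCHIL3 at 3 days. At 1416168_at it gave 17.8 and 18.1 in rcCHIL3 and 8.4 and 7.7 in MHM + GF at 7 days, and 39.9 and 37.7 in rcCHIL3 and 6.4 and 4.8 in MHM + GF at 3 days. At 1453724_a_at it gave 9.9 and 6.8 in rcCHIL3 and 9.3 and 2.0 in MHM + GF at 7 days, and 23.1 and 23.2 in rcCHIL3 and 3.0 and 1.6 in MHM + GF at 3 days. At both probe sets the rcCHIL3 3-day arrays lay above all others, and at 1453724_a_at the media overlapped at 7 days. None of these signals reached 50, so no fold is given, and the changes below come from the fit without the filter, in which 10% were called higher in rcCHIL3 at 3 days and 7.31% at 7 days.

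Whether the MHM + GF signals exceed background was not assessed, and the sizes of these changes depend on the offset of 20. In that fit Serpinf1 rose with rcCHIL3 at 3 days by 1.20 ± 0.10 at 1416168_at (adjusted p = 5.9e-05) and by 0.95 ± 0.14 at 1453724_a_at (adjusted p = 0.0013). At 7 days 1416168_at rose by 0.44 ± 0.10 (adjusted p = 0.02), a call lost when any of the 4 arrays of that day was left out (adjusted p 0.072 to 0.098), and the difference at 1453724_a_at was 0.15 (95% interval -0.16 to 0.47). From 3 to 7 days in rcCHIL3 Serpinf1 fell by 0.63 ± 0.10 at 1416168_at (adjusted p = 0.0044) and by 0.61 ± 0.14 at 1453724_a_at (adjusted p = 0.022, and 0.061 to 0.14 without any 1 of the 4 rcCHIL3 arrays), where 5.61% of all probe sets were called lower. In MHM + GF the difference between the days was 0.13 (95% interval -0.10 to 0.36) and 0.19 (95% interval -0.12 to 0.50). The rcCHIL3 difference was smaller at 7 than at 3 days, with changes of -0.76 ± 0.14 (adjusted p = 0.0084) and -0.80 ± 0.19 (adjusted p = 0.027), where the change was called lower at 7.59% of all probe sets. The second call was lost when any 1 of 6 arrays was left out (adjusted p 0.051 to 0.097), and on the deposited scale both were lost without a filter (0.065 and 0.079). With the limit of 50 set on the deposited values, which both probe sets passed, they were called there (adjusted p = 0.012 and 0.0045). Fibroblasts and mural cells are a known source of PEDF. Their 8 markers, of which 3 were tested, summed to 146.0 to 152.5 in rcCHIL3 and 486.0 to 541.4 in MHM + GF at 7 days, and to 199.6 to 204.5 in rcCHIL3 and 110.5 to 128.2 in MHM + GF at 3 days. Col1a1, Col1a2, Col3a1, Lum and Dcn were too dim, with means of 14.4 or less. At 7 days Pdgfrb averaged 17.5 (rcCHIL3) and 199.4 (MHM + GF), and Rgs5 49.3 and 231.5. At 3 days Acta2 averaged 114.1 (rcCHIL3) and 63.3 (MHM + GF), and Pdgfrb 38.5 and 10.1. The part of these cells in the Serpinf1 differences was not tested.

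**Figure D3:**
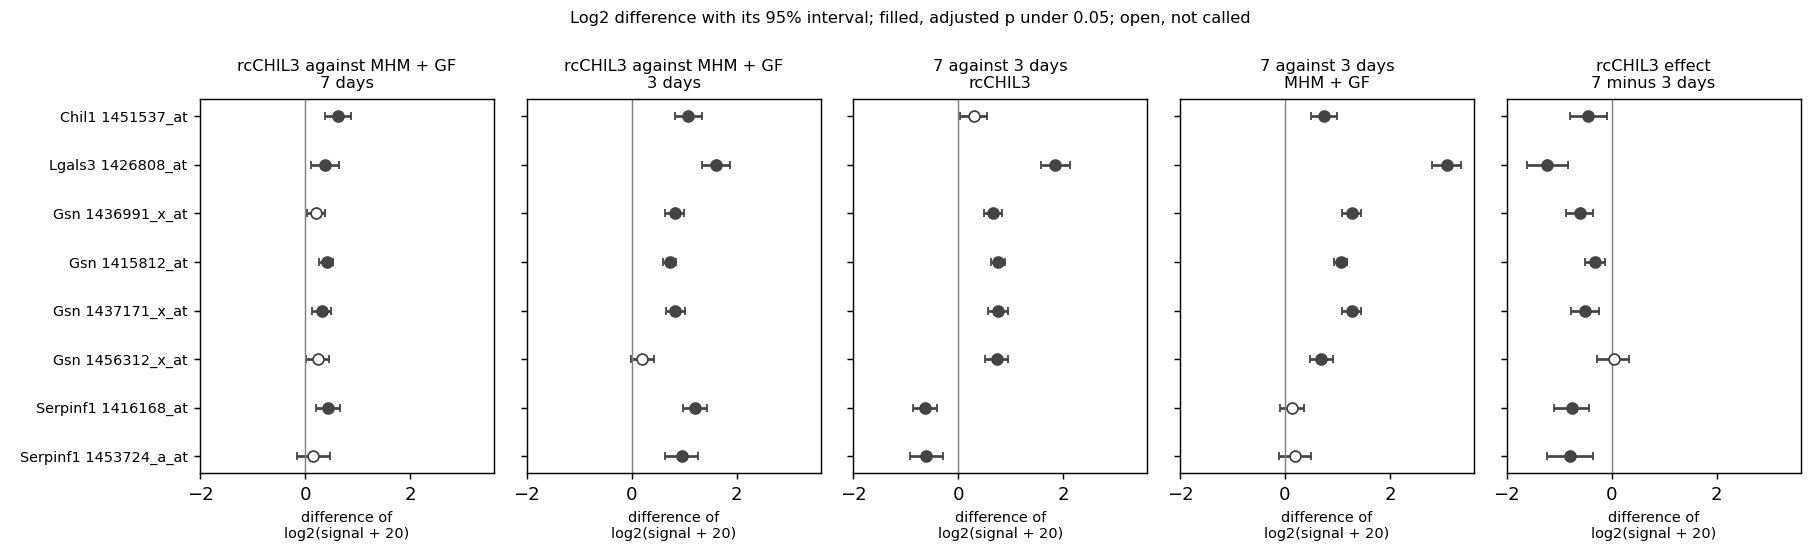
Differences of log2(signal + 20) (x axis) with their 95% intervals for the tested probe sets of Chil1, Lgals3 and Gsn and, from the fit without a filter, for the dim Serpinf1 probe sets (y axis), in each of the 5 comparisons (panels). Filled dots have an adjusted p under 0.05. Lgals3 reaches 3.08 between 7 and 3 days in MHM + GF, and Serpinf1 is the only gene drawn with falls (-0.63 and -0.61) between the days in rcCHIL3.

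Among the 6 tested probe sets, 4 were called higher in rcCHIL3 at 7 days, against 21.3% of all tested probe sets, and 5 were at 3 days, against 27.7%. The filter favored the direction of Chil1 at 7 days, and without Chil1 and Gsn 1456312_x_at the counts were 3 of 4 at 7 days and 4 of 4 at 3 days. The 7-day count over the 6 was 2 without replicate 1 of rcCHIL3. None of the 6 was called lower by limma, where 22.7% of all tested probe sets were at 7 days and 22.5% at 3 days. At an unadjusted p under 0.05 none of the 6 was lower either. Between 7 and 3 days 5 were called higher in rcCHIL3 (18.0% of all, with 17.9% lower) and all 6 in MHM + GF (31.1% of all, with 26.0% lower), or 4 of 4 in each medium without those 2 probe sets. Without replicate 2 of rcCHIL3 at 3 days, the calls over all probe sets in either direction between the days in rcCHIL3 numbered 3731 instead of 5617. The change of the rcCHIL3 difference from 3 to 7 days was called lower at 5 of the 6, against 22.7% of all, and higher at none, against 18.7%. These calls go by sign, so that a negative difference that shrank, as that of Lgals1 did, counts as higher. Since 4 of the 6 probe sets belong to Gsn, these counts stand for 3 genes. The median change over all tested probe sets was 0.03 between the media at 3 days and -0.01 at 7 days. The media are compared with the same arrays that the days are compared with, so the 4 comparisons are not independent.

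**Figure D4:**
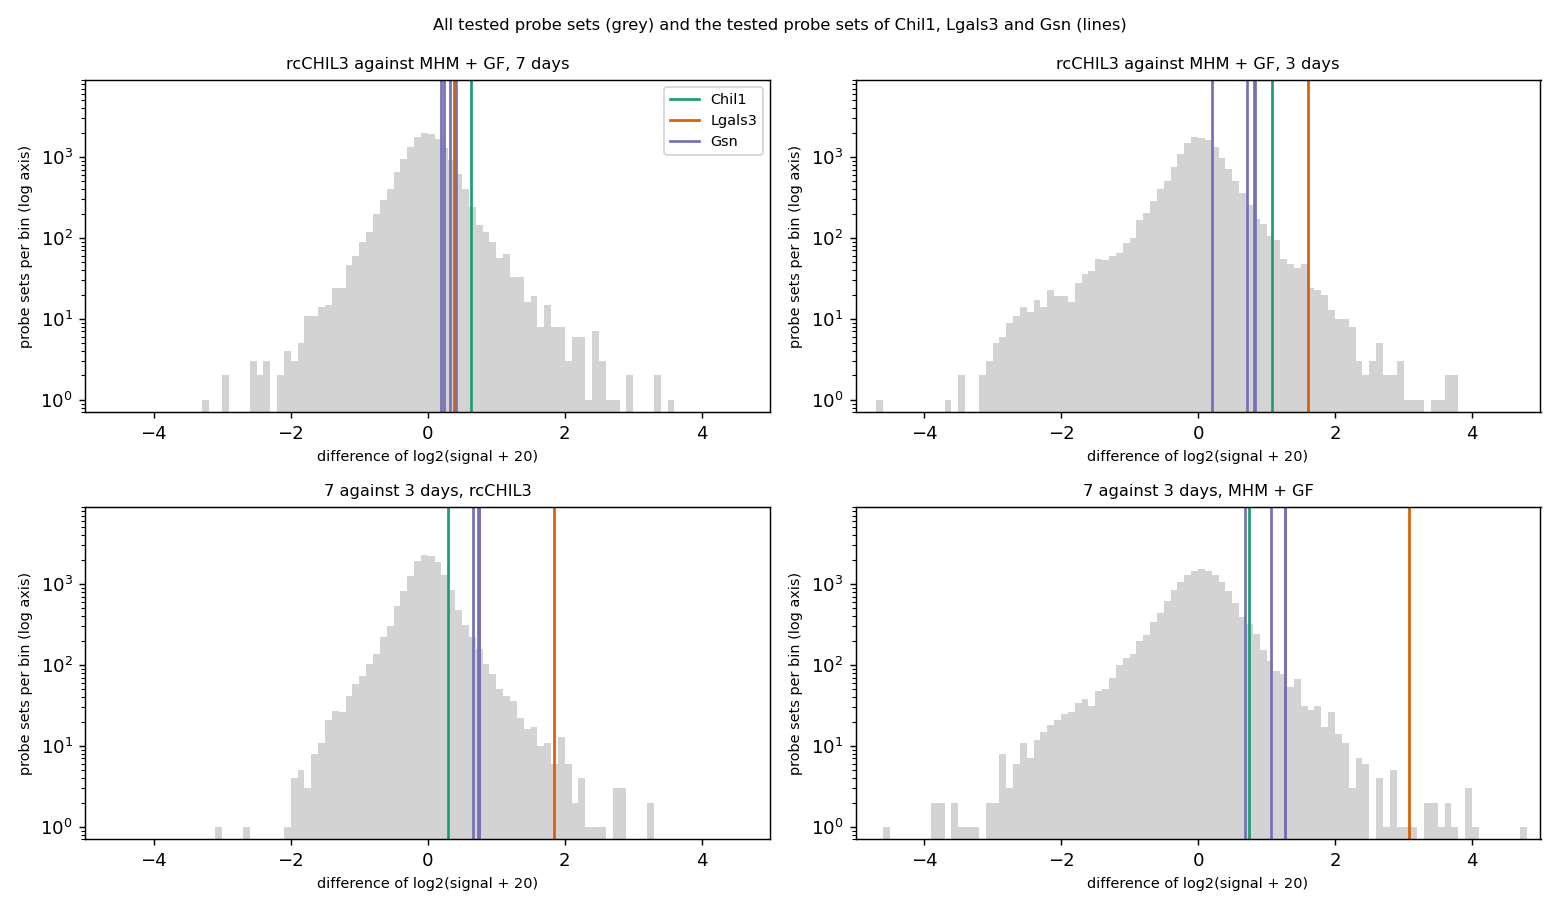
Number of tested probe sets (y axis, log axis) by their difference of log2(signal + 20) in bins of 0.1 (x axis), between the media at 7 and at 3 days and between the days in each medium. Colored lines mark the 6 tested probe sets of Chil1, Lgals3 and Gsn. All lie right of 0, with Lgals3 at 1.61 between the media at 3 days.

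Within the chitinase and chitinase-like family, Chil1 changed most between the media. Of 10 family genes, 8 had a probe set of their own and 4 were bright enough to test. At the brightest probe set of each, 1 of the 4 was called higher with rcCHIL3 at 7 days (Chil1, against 21.3% of all tested probe sets) and 2 at 3 days (Chil1 and Ctbs, against 27.7%), with medians of 0.10 and 0.30. Ctbs, a lysosomal enzyme that breaks down chitobiose, had signals of 56.3 and 72.0 in rcCHIL3 and 37.5 and 45.1 in MHM + GF at 3 days, a rise of 0.45 ± 0.12 (adjusted p = 0.0077). At 7 days it had 91.6 and 83.9 in rcCHIL3 and 93.1 and 80.2 in MHM + GF, which overlapped (0.02, adjusted p = 0.92). Chid1, a lysosomal and secreted member of the family, differed at its brighter probe set by 0.13 at 7 days (adjusted p = 0.29) and by 0.15 at 3 days (adjusted p = 0.21), and rose between 3 and 7 days by 0.42 in rcCHIL3 (adjusted p = 0.004) and by 0.44 in MHM + GF (adjusted p = 0.0016). The second tested probe sets of Ctbs and Chid1 did not share these calls in every case. Chid1 gave 71.6 and 55.6 in rcCHIL3 and 35.8 and 46.9 in MHM + GF at 7 days at its second probe set, which was called higher (0.44 ± 0.15, adjusted p = 0.029), and its change there between the days in MHM + GF was -0.16. The second probe set of Ctbs differed by 0.16 between the media at 3 days. Chil4 and the enzymes Chia1 and Chit1 were too dim to test, with group means of 6.5 or less.

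The receptors and partners described for CHI3L1, listed with Egfr, a proposed receptor of CHIL3 itself, had calls in both directions. Of 6 genes 4 were tested, Lgals3 among them, with 2 higher and 1 lower in rcCHIL3 at 7 days, where 21.3% of all tested probe sets were higher and 22.7% lower, and 2 higher and 2 lower at 3 days, where 27.7% were higher and 22.5% lower. Cd44, a receptor for hyaluronan, gave 452.2 and 437.8 in rcCHIL3 and 267.0 and 223.0 in MHM + GF at 7 days, and 685.3 and 677.1 in rcCHIL3 and 225.4 and 215.0 in MHM + GF at 3 days. It rose with rcCHIL3 by 0.82 ± 0.08 at 7 days (adjusted p = 1.7e-05) and by 1.55 ± 0.08 at 3 days (adjusted p = 4e-08), and unlike Lgals3 it fell between the days in rcCHIL3, by 0.59 ± 0.08 (adjusted p = 0.0002).

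Egfr, the receptor for the EGF that the control medium contains, was lower in rcCHIL3. It gave 380.1 and 374.9 in rcCHIL3 and 756.9 and 843.5 in MHM + GF at 7 days, and 214.7 and 217.9 in rcCHIL3 and 845.6 and 792.6 in MHM + GF at 3 days. The changes were -1.04 ± 0.07 (adjusted p = 7.8e-07) and -1.83 ± 0.07 (adjusted p = 3.6e-09), and all 3 tested Egfr probe sets were called lower at both days. Tmem219, the partner of IL13RA2 in CHI3L1 signaling, fell with rcCHIL3 by 0.45 ± 0.13 at 3 days (adjusted p = 0.014), when it had 57.8 and 71.5 in rcCHIL3 and 109.0 and 83.2 in MHM + GF, and differed by 0.19 at 7 days (adjusted p = 0.26). Il13ra2 itself was dim, with group means between 5.4 and 7.8, and so was Ptgdr2, with means of 0.8 or less.

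Lgals3 and Lgals1 moved in opposite directions at 3 days. Lgals1, whose product galectin-1 is known to be made by NSCs of the adult brain, gave 327.9 and 367.1 in rcCHIL3 and 1876.7 and 1994.8 in MHM + GF at 3 days. It fell by 2.41 ± 0.07 on the log2 scale (adjusted p = 6.7e-10), and both of its tested probe sets were called (-2.43 to -2.41). At 7 days it gave 614.4 and 647.3 in rcCHIL3 and 610.5 and 625.2 in MHM + GF, with overlap (0.03, adjusted p = 0.76), and its second probe set, with 381.3 and 368.9 in rcCHIL3 and 305.9 and 332.1 in MHM + GF, was called higher by 0.22 ± 0.08 (adjusted p = 0.048). Between the days it rose in rcCHIL3 by 0.83 (adjusted p = 5.3e-06) and fell in MHM + GF by 1.62 (adjusted p = 8e-09), whereas Lgals3 rose in both media.

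Of the 11 galectin genes and relatives, which include the galectin-3-binding protein gene Lgals3bp, 5 were tested, with 1 higher and 1 lower in rcCHIL3 at 7 days (21.3% and 22.7% of all tested probe sets) and 3 higher and 1 lower at 3 days (27.7% and 22.5%). Lgals8, a galectin that marks damaged vesicles, gave 214.1 and 201.8 in rcCHIL3 and 115.7 and 121.1 in MHM + GF at 3 days, a rise of 0.72 ± 0.08 (adjusted p = 1.9e-05). Lgals4, known from epithelia and from neurons, turned between the days. It had 50.8 and 46.8 in rcCHIL3 and 83.4 and 85.4 in MHM + GF at 7 days, a change of -0.60 ± 0.10 (adjusted p = 0.00054), and 40.9 and 46.1 in rcCHIL3 and 18.2 and 20.8 in MHM + GF at 3 days, a rise of 0.69 ± 0.10 (adjusted p = 0.00013), and the change of the difference between the days was -1.29 ± 0.14 (adjusted p = 2.7e-05). Lgals4 reached 50 on both MHM + GF 7-day arrays and on 1 other, so that it passed the filter through the group where it was high, and its 7-day adjusted p without the filter was 0.0034. Lgals3bp averaged 27.9 (rcCHIL3) and 18.9 (MHM + GF) at 7 days and 16.7 (rcCHIL3) and 11.4 (MHM + GF) at 3 days, too dim to test. The median of the 5 was 0.03 at 7 days and 0.69 at 3 days.

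In the gelsolin family 1 of 4 tested genes, Gsn, was called higher with rcCHIL3 at 3 days, against 27.7% of all tested probe sets. At 7 days none was called higher at its brightest probe set (21.3% of all) and 1 was called lower (22.7%). Capg, an actin-capping relative, had 34.8 and 32.7 in rcCHIL3 and 53.2 and 52.7 in MHM + GF at 7 days, a change of -0.44 ± 0.10 (adjusted p = 0.0049, and 0.028 without the filter) that was not called on the deposited scale, and 7.8 and 11.0 in rcCHIL3 and 9.8 and 11.7 in MHM + GF at 3 days. Capg passed the filter through the 2 MHM + GF 7-day arrays alone, which favored this direction. Svil and Flii differed by 0.13 or less between the media at either day at their brightest probe sets, with no call. The second tested probe set of each was not called either, with 0.19 for Flii at 3 days. Vil1, Vill, Avil and Scin, which include the villins of epithelia, were too dim. The medians of the 4 tested genes were -0.02 at 7 days and 0.06 at 3 days.

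Of 7 genes for PEDF receptors and for the related serpin Serpinf2, 4 were tested. Plxdc1, a transmembrane protein described as a PEDF receptor, had the largest change between the media at 7 days in these families. It gave 155.1 and 155.6 in rcCHIL3 and 16.3 and 14.4 in MHM + GF at 7 days, and 48.5 and 55.3 in rcCHIL3 and 5.7 and 0.9 in MHM + GF at 3 days. It rose with rcCHIL3 by 2.31 ± 0.12 (adjusted p = 8.5e-08) and by 1.63 ± 0.12 (adjusted p = 4.8e-07), and rose further between the days in rcCHIL3 (1.29 ± 0.12, adjusted p = 9.1e-06), where Serpinf1 fell. Plxdc1 passed the filter through 3 rcCHIL3 arrays alone, 2 of them of 7 days, which favored its rise with rcCHIL3 and between the days. Its adjusted p without the filter was 1e-05 between the media at 7 days and 0.00029 between the days in rcCHIL3. Its MHM + GF signals of 16.3 or less may not exceed background, so the size of these changes depends on the offset.

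Pnpla2, a lipase that also binds PEDF, had 82.2 and 88.4 in rcCHIL3 and 72.2 and 84.3 in MHM + GF at 7 days, and 86.7 and 73.1 in rcCHIL3 and 43.4 and 45.6 in MHM + GF at 3 days. It rose by 0.63 ± 0.10 at 3 days (adjusted p = 0.00042), and its 7-day difference was 0.10 (adjusted p = 0.45). Rpsa, the laminin receptor and a ribosomal protein, gave 1944.2 and 2082.2 in rcCHIL3 and 2734.8 and 2826.5 in MHM + GF at 3 days, a change of -0.46 ± 0.07 (adjusted p = 0.00014). Lrp6, a Wnt co-receptor, was not called, and the medians of the 4 genes were 0.04 at 7 days and 0.42 at 3 days. In the 5 family and receptor lists no call between the media turned its sign on the deposited scale or after quantile normalization.

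**Figure D5:**
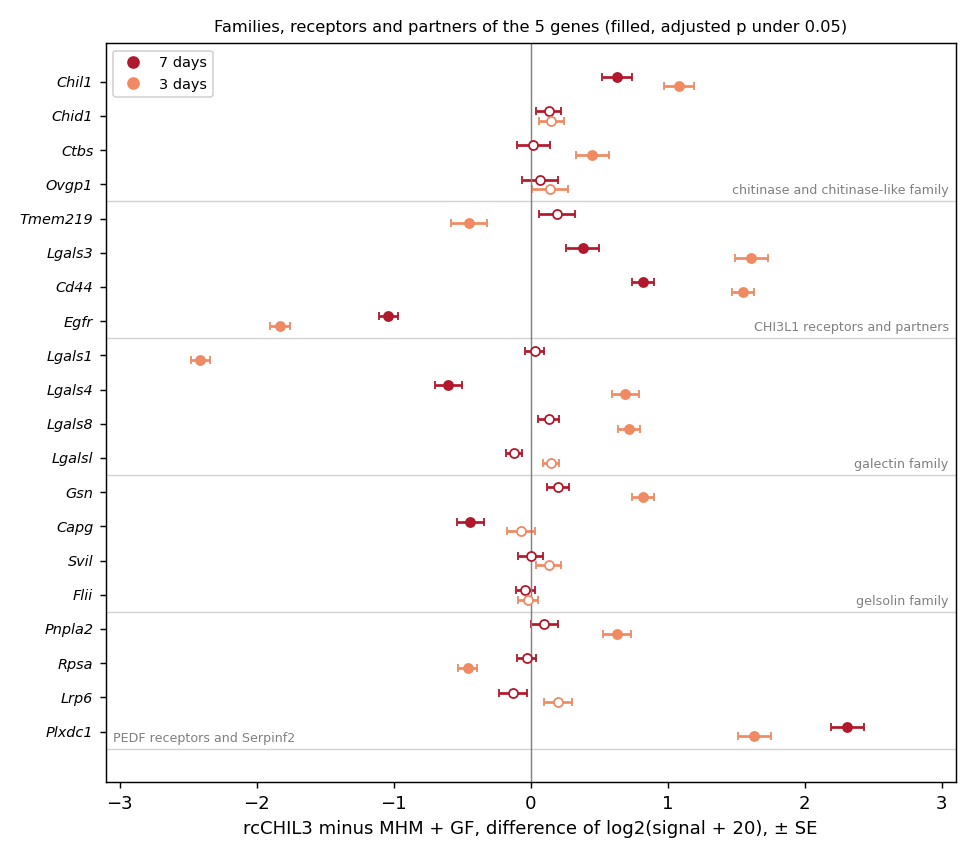
Difference between rcCHIL3 and MHM + GF in log2(signal + 20) (x axis, ± SE) at 7 and at 3 days for every tested gene of the 5 families and receptor lists (y axis), at the brightest tested probe set of each gene. Filled dots have an adjusted p under 0.05. Plxdc1 (2.31 at 7 days) lies farthest right, Lgals1 (-2.41 at 3 days) farthest left, and Lgals4 lies on opposite sides at the 2 days.

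The genes with the most similar pattern over the 8 arrays were found by the distance between log2(signal + 20) values, each centered on its own mean. For Chil1 these were Ifit3, an interferon-induced gene, S100a1, a calcium-binding protein gene, and Adam23, all at a distance of 0.29. For Lgals3 they were S1pr3, a sphingosine-1-phosphate receptor gene (0.54), Cyp1b1, a cytochrome P450 gene (0.79), and Nat8f3 (1.04). S1pr3 averaged 765.0 (rcCHIL3) and 501.0 (MHM + GF) at 7 days and 164.4 (rcCHIL3) and 30.2 (MHM + GF) at 3 days, the order of groups seen for Lgals3. For Gsn, at its brightest probe set, they were Clmn (0.25), Glis3, a transcription factor gene (0.26), and Man1a, a mannosidase gene (0.27). Their correlations with these members ranged from 0.98 to 0.998 over 8 arrays that share 4 culture groups, and are a description only.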

How the data were processed

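Total RNA from the 8 neurosphere cultures was hybridized to Affymetrix GeneChip arrays. The deposited values are linear signal intensities, computed by the authors with MAS5 (Affymetrix Expression Console 1.1 per the labels). Each array was rescaled to an average of 100, log2(signal + 20) was taken, and the 64 array controls were left out. Probe sets with a signal of at least 50 on 2 of 8 arrays were fitted with limma 3.58.1 (R 4.3.3) as 4 group means (eBayes with a trend). P-values (two-sided, limma's moderated test) were Benjamini-Hochberg adjusted across the 15679 tested probe sets, with a threshold of 0.05. Dim probe sets were fitted with all 45037. The code was tested on simulated data.

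Annotation named 34958 probe sets with 1 symbol, 932 with several and 9211 with none, and only the first were used. The members and gene lists were chosen with earlier results of these data known. Named were all member probe sets, up to 4 called genes of each list with the largest change at the brightest tested probe set, and the 3 nearest patterns per tested member gene. Single cell type markers and second probe sets were named after their values were seen. Arrays sharing a replicate number did not deviate together (correlations of -0.011 to 0.102), and the model had no block. The alternatives were the deposited scale, quantile normalization, an offset of 50 or a floor of 10 with no offset, a limit of 100 or none for the filter, groups compared alone, the replicate block, no trend, the methods' t-test and leaving out each array. P-values of limma rest on a spread between experiments that is pooled over the 4 groups of 2 arrays and moderated across probe sets. No proteins were compared. Python 3.11.15 with numpy 2.4.6, pandas 2.3.3 and matplotlib 3.10.9 made the tables and plots.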

Additional observations from a re-analysis of the deposited data

Results flagged for a closer look

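In 7 probe sets of Lgals3, Chil1, Gsn and Serpinf1 the rcCHIL3 difference at 7 days differed from that at 3 days, always downward. This was a test of the difference itself (limma, adjusted p under 0.05). The difference of the log2 changes was -1.23 for Lgals3, -0.45 for Chil1, -0.31, -0.61 and -0.51 for Gsn at 1415812_at, 1436991_x_at and 1437171_x_at, and -0.76 and -0.80 for Serpinf1 at 1416168_at and 1453724_a_at. The Serpinf1 values come from the fit without a filter, since its signals stayed under 50, and the change was called lower at 7.59% of all probe sets there. For Lgals3 and Gsn signals in both media were higher at 7 days, and for Serpinf1 the rcCHIL3 signal was lower at 7 days. For Lgals3, Chil1 and Gsn the share is that of the filtered fit, in which the change was called lower at 22.7% of all tested probe sets and higher at 18.7%. These shares go by the sign of the change. Chil1 passed the filter through the rcCHIL3 7-day arrays alone and was not called without it (adjusted p = 0.13). On the deposited scale the calls of Chil1 and of Gsn at 1415812_at and 1437171_x_at were lost. Those of Serpinf1 were lost there without a filter and kept with the limit of 50 set on the deposited values.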

How the results depend on the processing

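Over the alternatives, 500 values of the tested probe sets of the 5 genes kept their direction and side of the threshold, 33 lost a call, 5 gained one and 4 changed sign without a call. For Serpinf1 the numbers were 139, 23, 0 and 2. With the methods' t-test after adjustment, 0 member probe sets were called between the media at 7 days and 2 at 3 days (37 and 2434 of all probe sets), and 0 in rcCHIL3 and 3 in MHM + GF between the days (0 and 2376 of all). Unadjusted, this test called 3 member probe sets between the media at 7 days and 5 at 3 days (5144 and 6518 of all), and 5 in rcCHIL3 and 6 in MHM + GF between the days (4857 and 6583 of all). Leaving out 1 array gave 2 to 5 member calls between the media at 7 days (5123 to 6891 of all), 5 at 3 days (6192 to 8067), 5 between the days in rcCHIL3 (3731 to 5769), 6 in MHM + GF (7467 to 8940) and 4 to 5 for the change of the rcCHIL3 difference (5238 to 6210). At Gsn 1456312_x_at that last value turned to -0.01 with a floor of 10 and lay between -0.03 and -0.01 without any 1 of 3 arrays (-0.02 without replicate 1 of MHM + GF at 3 days). At Serpinf1 1453724_a_at the 7-day difference was -0.05 without replicate 2 and 0.36 without replicate 1 of MHM + GF at 7 days, and the change between the days in MHM + GF was 0.39 and -0.02 without them. The cause was not tested. With the replicate block, 6 instead of 5 member probe sets were called between the days in rcCHIL3 (Chil1, adjusted p = 0.047, as with an offset of 50 and, at 0.045, without a trend), and it changed no other call of the tested member probe sets. On the deposited scale the median of all probe sets in that comparison moved to 0.10 and calls were 3660 higher and 1655 lower, against 2818 and 2799, and for the change of the rcCHIL3 difference the median was 0.12 with 4033 higher and 1965 lower, against 2938 and 3552. Between the media, calls were 4115 higher and 2337 lower at 7 days, against 3343 and 3556, and 3323 higher and 4485 lower at 3 days, against 4341 and 3531. A filter of 100 left Chil1 and Gsn 1456312_x_at untested. With 2 arrays a group and no detection calls used, differences among dim signals have little precision.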
